A study of Mus musculus with 30 samples.

Results

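The macrophage marker genes were 10 of the 21073 genes in the deposited expression table: CSF1R, CD68, AIF1, LYZ2, TYROBP, MRC1, CD163, LYVE1, CX3CR1 and CCR2. They were taken by gene symbol, without regard to upper or lower case, and each symbol matched 1 row. The rule used no measured value.

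Macrophages are phagocytes that live in every tissue, where they clear debris and present antigen, and in skeletal muscle they lie in the connective tissue around the fibres and take part in repair after injury. Some settle in the muscle and renew themselves there, while others arrive from the blood as monocytes, which follow chemokines through the receptor CCR2. Their survival depends on the receptor CSF1R and its ligands CSF1 and IL34, and their gene program on the transcription factor PU.1, the product of SPI1.

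EDL muscle, a fast muscle of the lower hind limb, was taken from 30 female SJL/J mice, 5 in each of 6 groups. It was measured by RNA-Seq of polyA RNA. EAE (experimental autoimmune encephalomyelitis, an animal model of multiple sclerosis) was induced with the myelin peptide [Ser140]-PLP139-151 given in complete Freund's adjuvant (CFA) and no pertussis toxin, and the mice were sampled 14 days later, at the peak of disease, or 40 days later, in remission. Mice immunized with ovalbumin (OVA) in CFA and unimmunized mice (Ctrl) were the controls on each day. OVA mice shared the adjuvant but not the myelin antigen with EAE mice, and all 6 groups had the same genotype and no transgene. The ages of the mice were not given in the sources used here. Each mouse gave 1 muscle sample, so the days were compared between different mice.

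Values are given as RPKM, the reads on a gene's exons divided by exon length and by the reads mapped in that library, converted back from the deposited log2 scale. The estimated depth was 17.9M to 24.0M reads per mouse. All 10 muscle fibre markers passed the filter on low values, and on day 14 their summed level was 60899 to 72164 RPKM in EAE mice, below the 81226 to 103790 RPKM of Ctrl and the 74118 to 92737 RPKM of OVA mice. On day 40 it was 79897 to 90968 RPKM in EAE, 70910 to 85753 RPKM in Ctrl and 80897 to 84430 RPKM in OVA mice. The part of this shift in the members' values was not tested. Differences between groups are log2 fold changes of RPKM + 0.1 with their SE, tested with limma across all genes whose mean exceeded 3 RPKM in at least 1 compared group. Genes counted as called when the p, adjusted by Benjamini-Hochberg over all genes tested, was under 0.05 and the change exceeded 1.5-fold. All members except CX3CR1 passed the filter in every comparison, so 9 of 10 were tested. Between EAE and the controls on day 14, the median of all genes tested lay at 0.11 on the log2 scale, so the decreases of the members ran against a median above 0. In a whole muscle sample, fewer macrophages and less RNA per macrophage cannot be told apart.

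The members spanned a wide range of levels. LYZ2, which encodes the lysozyme of mouse macrophages and neutrophils, was the highest with a mean of 172 RPKM over the 30 mice and ranked 305 among all genes. TYROBP, CD68 and CSF1R followed with 17.7, 17.5 and 14.6 RPKM. MRC1 had 9.42 RPKM, CD163 and CCR2 had 5.70 RPKM each, AIF1 had 4.07 RPKM and LYVE1 had 3.85 RPKM. CX3CR1 was the lowest with 1.53 RPKM. RPKM is scaled by exon length, so that these levels can be compared between genes. The lowest estimated read number behind a value was 19.2 for AIF1 and 36.7 for CX3CR1, so single reads weigh most in these 2 genes, while the smallest of the other members was 81.6 for TYROBP.

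Because PU.1 is the main transcription factor of this lineage, the 250 bases before the start of the members were searched for GAGGAA, the core letters that PU.1 binds, on both strands (TTCCTC on the reverse). RefSeq windows (GRCm38.p6) were at hand for 7 members, and 3 of them (AIF1, CD68 and MRC1) held the letters, as did 23.1% of all 27025 windows of the same length. The 4 windows that lie wholly outside the RefSeq extent of their gene are shown, those of CD68 and MRC1 with the letters and those of LYZ2 and CX3CR1 without them. Capitals mark the letters, each window is written 5′ to 3′ on the strand of its gene, and positions count back from the first base of the gene.
CD68 (chr11:69666171-69666420, reverse strand): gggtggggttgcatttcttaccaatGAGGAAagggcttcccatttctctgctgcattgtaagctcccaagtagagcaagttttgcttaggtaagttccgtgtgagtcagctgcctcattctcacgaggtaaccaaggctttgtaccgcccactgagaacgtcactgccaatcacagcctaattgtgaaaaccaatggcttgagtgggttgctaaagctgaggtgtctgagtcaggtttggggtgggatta
MRC1 (chr2:14229164-14229413, forward strand): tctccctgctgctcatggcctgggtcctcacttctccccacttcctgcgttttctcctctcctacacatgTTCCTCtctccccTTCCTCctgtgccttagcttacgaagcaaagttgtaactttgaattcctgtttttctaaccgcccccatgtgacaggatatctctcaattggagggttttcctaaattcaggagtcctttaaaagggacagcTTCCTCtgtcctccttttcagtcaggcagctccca
LYZ2 (chr10:117282273-117282522, reverse strand): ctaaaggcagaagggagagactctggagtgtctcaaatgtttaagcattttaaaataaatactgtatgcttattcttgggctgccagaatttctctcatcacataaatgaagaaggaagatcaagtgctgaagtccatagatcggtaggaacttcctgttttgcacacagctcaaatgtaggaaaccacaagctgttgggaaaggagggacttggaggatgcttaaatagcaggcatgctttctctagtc
CX3CR1 (chr9:120068297-120068546, reverse strand): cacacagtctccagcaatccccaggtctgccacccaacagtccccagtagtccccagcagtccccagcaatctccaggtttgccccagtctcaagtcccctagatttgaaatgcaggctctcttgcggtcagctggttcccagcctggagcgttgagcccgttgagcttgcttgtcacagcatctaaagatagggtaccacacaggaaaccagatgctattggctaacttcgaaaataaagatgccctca
The match in CD68 begins at -225, and those in MRC1 begin at -180, -167 and -35. The match of AIF1, at -7, is among the 31 bases of its window that fall inside the longest RefSeq extent of the gene. The window of CCR2 falls inside the extent of its gene with all its 250 bases. A match of 6 letters is a description of the sequence and says nothing of binding in these muscles.

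**Figure D1:**
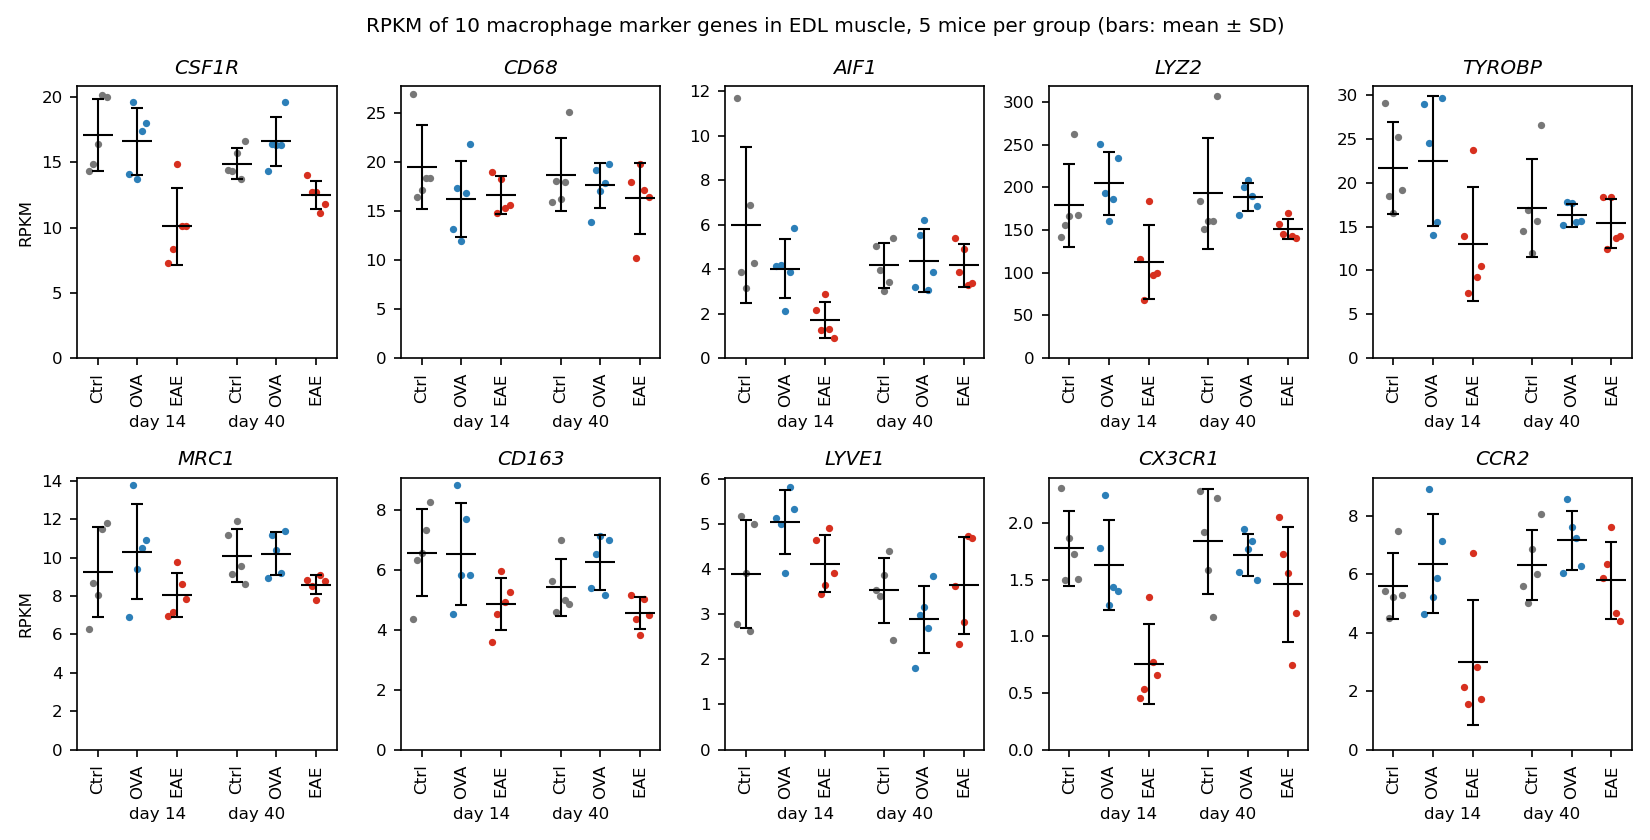
RPKM of the 10 members (linear axes from 0) in each of the 5 mice of the 6 groups, with the mean and SD as black bars. On day 14 the EAE mice had the lowest group mean for CSF1R, AIF1, LYZ2, TYROBP, MRC1, CD163, CX3CR1 and CCR2, and 1 EAE mouse lay above the other 4 for several of these genes.

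The comparison of EAE with unimmunized mice on day 14 asks what the disease and its induction together changed in the muscle at the peak. Of the 9 members tested, 5 were lower in EAE mice and called (CSF1R, AIF1, LYZ2, TYROBP and CCR2), and none was called higher. AIF1 and CCR2, with EAE means of 1.70 and 2.99 RPKM, passed the filter only through the control groups. The direction of their calls, against Ctrl and OVA alike, was thus partly set by the filter. Of all 8771 genes tested, 26.4% were called, 11.8% in the direction lower in EAE. The median log2 fold change was -0.71 over the 9 members and 0.11 over all genes tested. The comparison of EAE with OVA mice on the same day, in which both groups had received CFA, called 5 members lower and none higher, again CSF1R, AIF1, LYZ2, TYROBP and CCR2, with a median of -0.73 over the 9 members and 0.11 over all genes. In that comparison 20.3% of the 8674 genes tested were called, 9.28% as lower. Both comparisons share the same EAE mice, so the agreement between their lists is no independent support. Between OVA and unimmunized mice on day 14 no member was called, limma gave 1 member (LYVE1) and 9.69% of all 8471 genes tested an unadjusted p below 0.05, and 0.142% of all genes were called.

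CSF1R (chr18:61105572-61131139, GRCm38, forward strand) encodes the receptor on which macrophage survival depends. On day 14 its RPKM in mice 1 to 5 was 14.3, 14.9, 16.4, 20.2 and 20.0 in Ctrl, 14.1, 19.6, 13.7, 17.4 and 18.0 in OVA, and 7.25, 8.34, 14.9, 10.1 and 10.1 in EAE. Of the 5 EAE mice, 4 lay below every control mouse of either kind, and the remaining mouse lay within both control groups. The log2 fold change was -0.78 ± 0.17 (SE, n = 5) against Ctrl (adjusted p = 0.00178, limma) and -0.73 ± 0.17 against OVA (adjusted p = 0.00351, limma). The last exon of CSF1R overlaps HMGXB3 on the opposite strand, and whether the counting used strand was not given in the sources used here.

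AIF1 (chr17:35170986-35176083, reverse strand) encodes IBA1, a calcium-binding protein that is used as a histological marker of macrophages and microglia. Its RPKM was 11.7, 3.86, 3.15, 6.89 and 4.26 in Ctrl, 4.13, 4.18, 2.14, 3.88 and 5.84 in OVA and 2.18, 1.26, 2.87, 1.30 and 0.883 in EAE mice. All 5 EAE mice were below every unimmunized mouse, while 3 of 5 were below every OVA mouse. Such a separation below Ctrl was seen in 11.0% of all genes tested. AIF1 had the largest decrease of the 9 members tested, by 1.70 ± 0.36 (SE) on the log2 scale against Ctrl, where its adjusted p was 0.00138. Against OVA it fell by 1.25 ± 0.36, with an adjusted p of 0.0126 (both limma).

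LYZ2 (chr10:117277541-117282272, reverse strand) had 142, 156, 166, 263 and 168 RPKM in Ctrl, 251, 194, 161, 186 and 234 RPKM in OVA and 116, 68.0, 184, 97.2 and 99.7 RPKM in EAE mice. Here, too, 4 of 5 EAE mice were below all mice of either control group and 1 lay among them. The log2 fold change was -0.71 ± 0.22 (SE) against Ctrl (adjusted p = 0.0170) and -0.92 ± 0.22 against OVA (adjusted p = 0.00452). The call against Ctrl was lost without replicate 4 of Ctrl or without replicate 2 of EAE, with adjusted p up to 0.0531. LYZ1, a near-identical copy next to it that can share reads, was at 2.78% to 5.02% of the LYZ2 level in single mice on day 14 and was called lower in EAE as well, with log2 fold changes of -0.87 ± 0.21 and -0.83 ± 0.21 against Ctrl and OVA.

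TYROBP (chr7:30413782-30417582, forward strand) encodes DAP12, an adaptor through which TREM2 and other receptors of myeloid cells signal. It had 29.1, 18.5, 16.6, 25.2 and 19.2 RPKM in Ctrl, 29.0, 24.5, 14.1, 15.5 and 29.7 RPKM in OVA and 13.9, 7.39, 23.8, 9.25 and 10.5 RPKM in EAE mice. Again 4 EAE mice were below all controls and 1 was among them. On the log2 scale TYROBP differed by -0.83 ± 0.29 (SE) against Ctrl (adjusted p = 0.0261) and -0.85 ± 0.29 against OVA (adjusted p = 0.0283). Of the calls of day 14 these were lost most often: when single mice were left out, TYROBP was called in 5 of 10 fits against Ctrl and in 4 of 10 fits against OVA, with adjusted p of up to 0.0847. The mice whose removal ended the call were replicates 1 and 4 of Ctrl, replicates 1, 2 and 5 of OVA, and replicates 2, 4 and 5 of EAE.

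CD68 (chr11:69664213-69666170, reverse strand) encodes a glycoprotein of lysosomes and endosomes and is abundant in phagocytes. Its RPKM was 26.9, 16.4, 17.1, 18.4 and 18.4 in Ctrl, 13.2, 17.3, 11.9, 16.8 and 21.8 in OVA and 19.0, 14.8, 18.3, 15.3 and 15.6 in EAE mice. The EAE values lay between 14.8 and 19.0, inside the range of the OVA group, while 3 of them were below every unimmunized mouse. CD68 differed by -0.21 ± 0.16 on the log2 scale (95% CI -0.56 to 0.13, adjusted p = 0.289, limma) against Ctrl and 0.06 ± 0.16 (95% CI -0.28 to 0.41, adjusted p = 0.785) against OVA, where it turned to -0.04 without replicate 3 of OVA.

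MRC1, CD163 and LYVE1 are read as markers of macrophages resident in tissue, though LYVE1 is also made by lymphatic endothelium. MRC1 (chr2:14229414-14332023, forward strand), the mannose receptor CD206, had 6.29, 8.68, 8.06, 11.5 and 11.8 RPKM in Ctrl, 6.91, 13.8, 9.40, 10.5 and 10.9 RPKM in OVA and 6.96, 7.19, 9.75, 8.64 and 7.82 RPKM in EAE mice on day 14. No EAE mouse was below all mice of either control group. MRC1 differed by -0.17 ± 0.19 on the log2 scale (95% CI -0.57 to 0.22, adjusted p = 0.465) against Ctrl and -0.32 ± 0.19 (95% CI -0.72 to 0.07, adjusted p = 0.182) against OVA.

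CD163 (chr6:124304636-124330529, forward strand) encodes the scavenger receptor for haptoglobin-haemoglobin complexes. It had 4.36, 6.34, 6.55, 7.33 and 8.28 RPKM in Ctrl, 4.53, 8.82, 5.84, 7.69 and 5.84 RPKM in OVA and 3.59, 4.53, 5.96, 4.93 and 5.27 RPKM in EAE mice. The groups overlapped, with 1 EAE mouse below each control group. Its log2 fold change of -0.42 ± 0.19 against Ctrl had an unadjusted p of 0.0464 and an adjusted p of 0.0847, and that of -0.40 ± 0.19 against OVA an adjusted p of 0.109 (limma).

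LYVE1 (chr7:110850607-110862953, reverse strand) encodes a receptor for hyaluronan. Its RPKM was 2.78, 5.17, 3.92, 2.62 and 5.01 in Ctrl, 5.13, 5.00, 3.91, 5.83 and 5.33 in OVA and 4.64, 3.45, 3.65, 4.91 and 3.92 in EAE mice. The EAE mice lay inside the Ctrl range, and LYVE1 was the only one of the 9 members with a fold change above 0 against Ctrl (0.12 ± 0.19, 95% CI -0.28 to 0.51, adjusted p = 0.619), which became -0.01 without replicate 4 of Ctrl. Against OVA the value was -0.29 ± 0.19 (adjusted p = 0.235). PROX1, the defining transcription factor of lymphatic endothelium, was under 3 RPKM and was between 0.0619 and 0.568 RPKM in the mice of day 14.

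CCR2 and CX3CR1 are chemokine receptors that mark monocytes newly come from the blood and patrolling monocytes or resident macrophages, respectively. CCR2 (chr9:124101918-124109140, forward strand) had 5.41, 4.49, 5.21, 7.49 and 5.27 RPKM in Ctrl, 4.65, 8.90, 5.23, 5.88 and 7.13 RPKM in OVA and 2.14, 1.55, 6.73, 2.82 and 1.74 RPKM in EAE mice on day 14. The EAE mice split into 4 with less than any control and replicate 3, which was higher than 4 of the 5 unimmunized mice. On the log2 scale CCR2 differed by -1.07 ± 0.30 (SE) against Ctrl (adjusted p = 0.00946) and -1.24 ± 0.30 against OVA (adjusted p = 0.00483). Without replicate 3 of EAE the values were -1.41 and -1.58.

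CX3CR1 (chr9:120048683-120068296, reverse strand) had 2.31, 1.5, 1.87, 1.73 and 1.51 RPKM in Ctrl, 1.78, 2.25, 1.28, 1.44 and 1.40 RPKM in OVA and 0.453, 0.537, 1.35, 0.776 and 0.658 RPKM in EAE mice. All 5 EAE mice were below every unimmunized mouse and 4 were below every OVA mouse. Such a separation below Ctrl was seen in 11% of the 8771 genes above the filter, which leave out CX3CR1. The gene did not reach 3 RPKM in any group and was not tested in the filtered fit. In a fit without the filter, over 17474 genes, its log2 fold change was -1.21 ± 0.24 against Ctrl (adjusted p = 0.00147, limma) and -1.08 ± 0.24 against OVA (adjusted p = 0.00421). The share of genes called in that fit is not given here, so these values are not set against it.

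**Figure D2:**
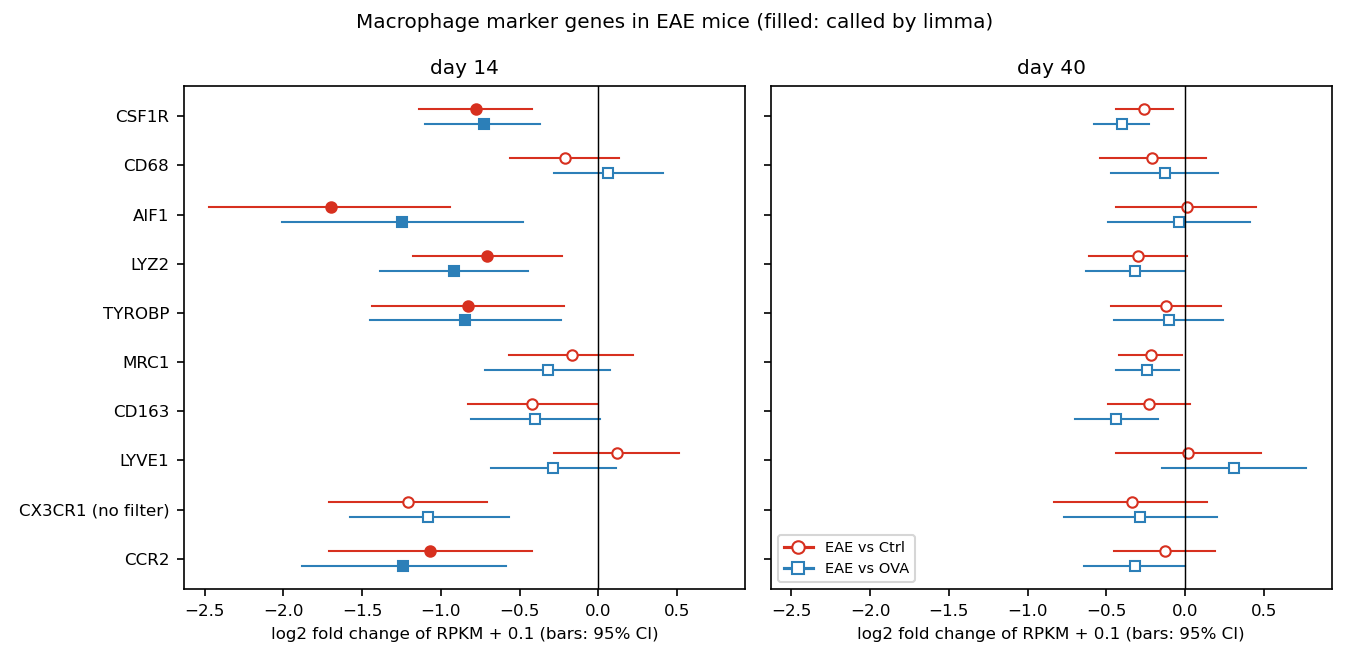
Log2 fold changes of RPKM + 0.1 (points) with 95% confidence intervals (bars) for EAE against Ctrl and against OVA mice, day 14 on the left and day 40 on the right; filled points were called by limma, and CX3CR1, from the fit without the filter, is drawn open in every comparison. On day 14 the called members lie between -0.71 and -1.70, while the intervals of CD68, MRC1 and LYVE1 include 0, and no member was called on day 40.

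Whether the members moved to unequal degrees was examined as the log2 ratio of each other member to CSF1R in the same mouse, a value that does not depend on the scaling of the library. The ratio of MRC1 to CSF1R was higher in all 5 EAE mice than in any unimmunized mouse, with a mean of -0.29 ± 0.21 (SD) against -0.90 ± 0.18 (difference 0.61, exact permutation test, two-sided, p = 0.00794, the smallest p that 5 against 5 mice allow). The ratio of CD68 to CSF1R was higher in all 5 EAE mice than in any OVA mouse, at 0.74 ± 0.40 against -0.05 ± 0.19 (difference 0.79, exact permutation test, p = 0.00794). After adjustment over the 18 ratios tested, both had an adjusted p of 0.0714, so that no ratio passed 0.05. The ratios of LYZ2 and TYROBP to CSF1R differed by 0.07 and -0.05 between EAE and Ctrl, less than their SD within groups. The ratios were added after the fold changes were known.

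The decreases were not the same in every EAE mouse. Replicate 3 of the EAE group was the highest of the 5 mice for 8 of the 10 members, and its mean log2(RPKM + 0.1) over the members was 3.29, against 2.34 to 2.67 in the other 4 EAE mice, 3.24 to 3.57 in Ctrl and 3.04 to 3.64 in OVA mice on day 14. For CSF1R, LYZ2, TYROBP and CCR2 it was this mouse that lay among the controls. SPI1, at 6.89 RPKM in this mouse and 2.10 to 4.21 RPKM in the other EAE mice, and H2-AB1, an MHC class II gene, at 67.6 RPKM against 19.9 to 27.1 RPKM, followed the same order. Genes of other cells did so in part. Replicate 3 was also the highest EAE mouse for COL1A1 (45.5 RPKM), KDR (13.9 RPKM) and PVALB (7002 RPKM). It was not the highest for CLDN5 or HBA-A1, and it was the lowest for S100A8 (130 RPKM). Its estimated depth, 24M reads, was the greatest of its group, and the part of depth was not tested. The clinical scores of single mice were not used here.

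**Figure D3:**
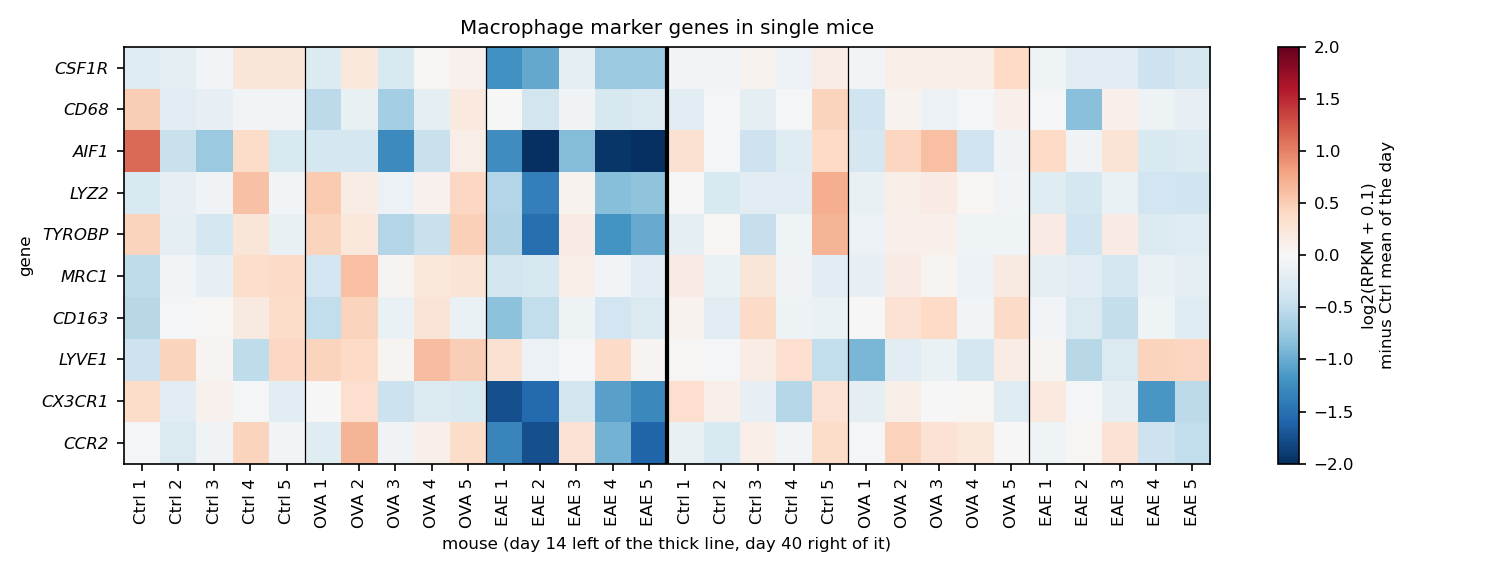
Log2(RPKM + 0.1) of the members (rows) in each of the 30 mice (columns), minus the mean of the unimmunized mice of the same day; blue is below and red above that mean, and the colours end at 2 in each direction. On day 14 the EAE columns are blue for AIF1, CX3CR1, CCR2, TYROBP, LYZ2 and CSF1R except replicate 3, which is paler or red, while CD68, MRC1 and LYVE1 stay near 0.

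On day 40 no member was called in any comparison. EAE and unimmunized mice differed by a median of -0.21 over the 9 members and -0.05 over all 8691 genes tested, of which 0.46% were called. An unadjusted p below 0.05 in limma was found for 2 of 9 members (CSF1R and MRC1) and for 27.9% of all genes. EAE and OVA mice differed by a median of -0.24 over the members and -0.04 over all 8598 genes, with 0.209% called. Here 4 of 9 members (CSF1R, MRC1, CD163 and LYZ2) and 17.4% of all genes had an unadjusted p below 0.05. OVA and unimmunized mice differed by a median of 0.02 over the members, with 0% of 8706 genes called and no member, but 3.12% of all genes, at an unadjusted p below 0.05 (limma).

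CSF1R came nearest to a call on day 40. Its RPKM was 14.4, 14.3, 15.7, 13.7 and 16.6 in Ctrl, 14.3, 16.4, 16.3, 16.3 and 19.6 in OVA and 14.0, 12.7, 12.7, 11.1 and 11.8 in EAE mice. All 5 EAE mice were below every OVA mouse, a separation seen in 4.9% of all genes tested, and 4 of 5 were below every unimmunized mouse. The log2 fold change of -0.40 ± 0.08 (SE) against OVA had an adjusted p of 0.0464 but was smaller than the 1.5-fold threshold, and that of -0.26 ± 0.08 against Ctrl had an adjusted p of 0.0847 (limma). CD163 was also lower in all 5 EAE mice (5.15, 4.35, 3.83, 5.03 and 4.5 RPKM) than in any OVA mouse (5.39, 6.54, 7.12, 5.17 and 7.00 RPKM), with a log2 fold change of -0.44 ± 0.12 and an adjusted p of 0.110. The other members overlapped between EAE and both control groups. AIF1 was at 5.42, 3.86, 4.92, 3.28 and 3.37 RPKM in EAE mice and 5.06, 3.96, 3.02, 3.41 and 5.41 RPKM in unimmunized mice (log2 fold change 0.01, 95% CI -0.44 to 0.45), a value whose sign changed with single mice left out.

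Levels of the remaining members on day 40 lay close together in the 3 groups. LYZ2 ranged from 151 to 307 RPKM (median 161) in Ctrl, from 168 to 209 RPKM (median 190) in OVA and from 141 to 170 RPKM (median 146) in EAE mice, and 4 of 5 EAE mice were below every OVA mouse. TYROBP was at 12.0 to 26.6 RPKM in Ctrl, 15.2 to 17.8 RPKM in OVA and 12.5 to 18.4 RPKM in EAE mice. The EAE mice thus spread to both sides of the narrow OVA group, with 3 below it and 2 above it.

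CD68 had medians of 17.9, 17.8 and 17.1 RPKM in Ctrl, OVA and EAE mice on day 40, with 10.2 RPKM in 1 EAE mouse and 25.1 RPKM in 1 unimmunized mouse as the extremes. MRC1 was between 7.81 and 9.09 RPKM in EAE mice, the narrowest spread of any member and group (CV 5.68%), and 4 of these mice were below every OVA mouse (8.96 to 11.4 RPKM). LYVE1 was at 2.34 to 4.73 RPKM in EAE, 1.80 to 3.85 RPKM in OVA and 2.43 to 4.4 RPKM in Ctrl mice. CX3CR1 was at 0.746 to 2.06 RPKM in EAE, 1.5 to 1.95 RPKM in OVA and 1.17 to 2.29 RPKM in Ctrl mice, and in the fit without the filter its log2 fold change was -0.34 ± 0.23 against Ctrl (adjusted p = 0.403, limma) and -0.29 ± 0.23 against OVA (adjusted p = 0.598). CCR2 was at 5.02 to 8.06 RPKM in Ctrl and 6.05 to 8.57 RPKM in OVA mice, and 2 and 3 of the 5 EAE mice were below these groups.

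Between day 14 and day 40, AIF1 and CCR2 rose in the EAE mice and were called. These were 2 of 9 members, beside 21.1% of all 8709 genes called, 8.36% as higher. Both had EAE means under 3 RPKM on day 14 and passed the filter only through day 40, which favoured calls as higher. AIF1 was higher in all 5 EAE mice of day 40 than in any of day 14, a separation seen in 10.2% of genes, with a log2 fold change of 1.33 ± 0.31 (adjusted p = 0.000860, limma). CCR2 was at 5.88, 6.36, 7.62, 4.67 and 4.4 RPKM on day 40, which overlapped only with replicate 3 of day 14, and its log2 fold change was 1.11 ± 0.25 (adjusted p = 0.000659). CX3CR1 went from 0.755 ± 0.354 to 1.46 ± 0.506 RPKM (mean ± SD), with a log2 fold change of 0.88 ± 0.24 in the fit without the filter (adjusted p = 0.00513). Without replicate 3 of EAE on day 14, LYZ2 and TYROBP were called too, so that the count was 4. The share of all genes called in that fit is not given here, so this count is not set against it.

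The control groups changed less between the days. No member was called between the days in unimmunized mice, where 9.37% of 8788 genes were called and no member had an unadjusted p below 0.05 in limma, which 45.6% of all genes had. In OVA mice LYVE1 fell and was called, 1 of 9 members beside 3.97% of 8648 genes, 1.71% as lower. Its RPKM on day 40 was 1.80, 2.98, 3.15, 2.69 and 3.85 in OVA mice, below all 5 OVA mice of day 14, which 3.89% of genes showed. The log2 fold change of LYVE1 was -0.81 ± 0.21 (adjusted p = 0.0141, limma), and the call was lost without replicate 1 of day 40 (adjusted p = 0.0571). With a mean of 2.89 RPKM in OVA mice of day 40, LYVE1 passed the filter only through day 14, which favoured a call as lower.

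The change of the EAE effect from day 14 to day 40 was tested directly as an interaction. Against Ctrl it was called for 3 of 9 members, CSF1R (0.52 ± 0.20, adjusted p = 0.0291), AIF1 (1.71 ± 0.44, adjusted p = 0.00255) and CCR2 (0.94 ± 0.36, adjusted p = 0.0318), beside 48.6% of all 9013 genes, 16.5% in this direction. Against OVA it was called for AIF1 (1.21 ± 0.44, adjusted p = 0.0337) and CCR2 (0.92 ± 0.36, adjusted p = 0.0458, limma, held in 7 of the 20 fits that each drop 1 mouse), beside 35.1% of 8935 genes, 11.1% in this direction. Positive values mean that the difference between EAE and control mice was less negative on day 40. AIF1 and CCR2 passed the filter here through the groups other than EAE of day 14. The median of all genes tested was -0.15 and -0.16 in these 2 tests. With single mice left out, the number of members called ranged from 1 to 5 against Ctrl and from 0 to 5 against OVA. The 5 in each case came from the fit without replicate 3 of EAE on day 14. The shares of all genes called in these fits are not given here. Against Ctrl the count fell to 1 (AIF1) without replicate 4 of Ctrl, replicate 1 of EAE or replicate 2 of EAE, all of day 14. Against OVA it was 0 without replicate 5 of OVA or replicates 2 or 5 of EAE on day 14, and without replicates 1, 4 or 5 of OVA or replicates 1 or 3 of EAE on day 40. It was 1 without replicates 2 or 4 of OVA or 1 or 4 of EAE on day 14, and without replicate 3 of OVA or 2 of EAE on day 40.

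Other macrophage genes were examined as lists. Of 17 further genes common to macrophages, 11 were tested in EAE against Ctrl on day 14 and 7 were called lower, and against OVA 9 of 10 were called lower, with none higher in either. The median log2 fold change was -0.94 and -0.84. Of all genes tested, 11.8% against Ctrl and 9.28% against OVA were called lower, shares that also apply to the lists below. The lists were chosen with earlier results of these data known. Called lower were MS4A7 (-1.27 ± 0.25 against Ctrl), the protease gene CTSS (-1.26 ± 0.27) and FCER1G, the common chain of Fc receptors (-1.06 ± 0.25). LAPTM5, a lysosomal protein of blood cells (-1.02 ± 0.21), was called lower as well. MS4A7, with an EAE mean of 2.33 RPKM, passed the filter only through the control groups. Counts of lower calls were thus partly set by the filter. The summed level of the 17 genes was 117 to 184 RPKM in Ctrl, 101 to 171 RPKM in OVA and 53.9 to 120 RPKM in EAE mice. C1QA, C1QB and C1QC, the chains of complement C1q that tissue macrophages secrete, had log2 fold changes of -1.04 ± 0.22, -1.01 ± 0.20 and -1.01 ± 0.22 against Ctrl and of -0.88, -0.95 and -0.87 against OVA, and all were called.

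Of 17 genes of resident macrophages, 15 were tested and 9 were called lower against Ctrl and 7 against OVA, with none higher and medians of -0.75 and -0.56. The folate receptor gene FOLR2 was at 11.0 to 16.7 RPKM in Ctrl and 2.36 to 7.65 RPKM in EAE mice, without overlap (log2 fold change -1.62 ± 0.24, adjusted p = 9.3e-05, limma). Of all genes tested, 11% were separated below Ctrl in this way. CBR2 (-1.51 ± 0.20), CD209G (-1.39 ± 0.23) and the leukotriene synthase gene LTC4S (-1.10 ± 0.28) were called lower too. CD209G and LTC4S, with EAE means of 2.13 and 2.16 RPKM, passed the filter only through the control groups, which favoured calls as lower. Some genes of the list are expressed by other cells of muscle as well, IGF1 and GAS6 among them. The list of resident genes held called members, while MRC1, CD163 and LYVE1, which the same cells are known to express, were not called.

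In the CSF1 receptor pathway, 2 genes were called higher and 4 lower of 9 tested against Ctrl, and 2 higher and 2 lower of 8 against OVA. SPI1 had 10.4, 6.42, 6.37, 9.08 and 5.68 RPKM in Ctrl, 8.03, 8.16, 5.23, 7.27 and 11.9 RPKM in OVA and 4.21, 2.10, 6.89, 4.16 and 3.38 RPKM in EAE mice. SPI1 had a log2 fold change of -0.92 ± 0.27 against Ctrl (adjusted p = 0.0109) and -1.0 ± 0.27 against OVA (adjusted p = 0.00809). The letters that PU.1 binds stood in the windows of AIF1, CD68 and MRC1, with the match of AIF1 inside the longest extent of its gene. AIF1 was called lower on day 14, and CD68 and MRC1 were not. Of the members searched without these letters, LYZ2 and CCR2 were called lower, CD163 was not, and CX3CR1 was under the filter. The window of CCR2 lay wholly inside its gene. IRF8, another transcription factor of the lineage (-1.06 ± 0.29), and CSF2RA, a receptor chain for GM-CSF (-1.42 ± 0.27), were called lower against Ctrl, and CSF2RA against OVA as well. IRF8 was not tested against OVA, with means of 2.37 RPKM in OVA and 1.73 RPKM in EAE mice. It passed the filter only through the Ctrl mean of 4.05 RPKM. The Ctrl mice had a median of 3.09 RPKM, with 8.42 RPKM in replicate 4. CSF2RA, with an EAE mean of 2.17 RPKM, passed the filter only through the control groups. Of the ligands of CSF1R, IL34 was called lower against Ctrl (-0.62 ± 0.14, adjusted p = 0.00214) and not against OVA (-0.34 ± 0.14, adjusted p = 0.0653), and CSF1 was not called in either (-0.32 ± 0.19 and -0.38 ± 0.19). The genes called higher were RUNX1 (2.84 ± 0.33 against Ctrl) and CEBPB (0.95 ± 0.30), transcription factors that muscle fibres and other cells also express.

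The ligands of the chemokine receptors were mostly at low levels. Only 4 of 10 chemokine genes were tested, and CCL8, a ligand of CCR2, was called lower against Ctrl (-2.80 ± 0.60, adjusted p = 0.00155) and OVA (-2.18 ± 0.60, adjusted p = 0.00995), with 0.490 to 3.94 RPKM in EAE and 3.00 to 40.0 RPKM in Ctrl mice. With an EAE mean of 1.7 RPKM, CCL8 passed the filter only through the control groups. CXCL12 was called lower against OVA alone (-0.68 ± 0.17), with -0.37 ± 0.17 against Ctrl. The CCR2 ligands CCL2 (-0.97 ± 0.47 against Ctrl, adjusted p = 0.0966) and CCL7 (-0.86 ± 0.43, adjusted p = 0.108) were not called, and CX3CL1, the ligand of CX3CR1, was under the filter with group means of 1.84, 1.77 and 2.05 RPKM in Ctrl, OVA and EAE mice. Of the DAP12 and ITAM signalling genes, 4 of 14 were tested, and 3 were called lower against Ctrl and 2 against OVA. PTPN6 (-1.07 ± 0.27 against Ctrl), SIRPA (-0.72 ± 0.15) and FCER1G, which also stands in the macrophage list, made up the first count. PTPN6, with an EAE mean of 2.27 RPKM, passed the filter only through the control groups.

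**Figure D4:**
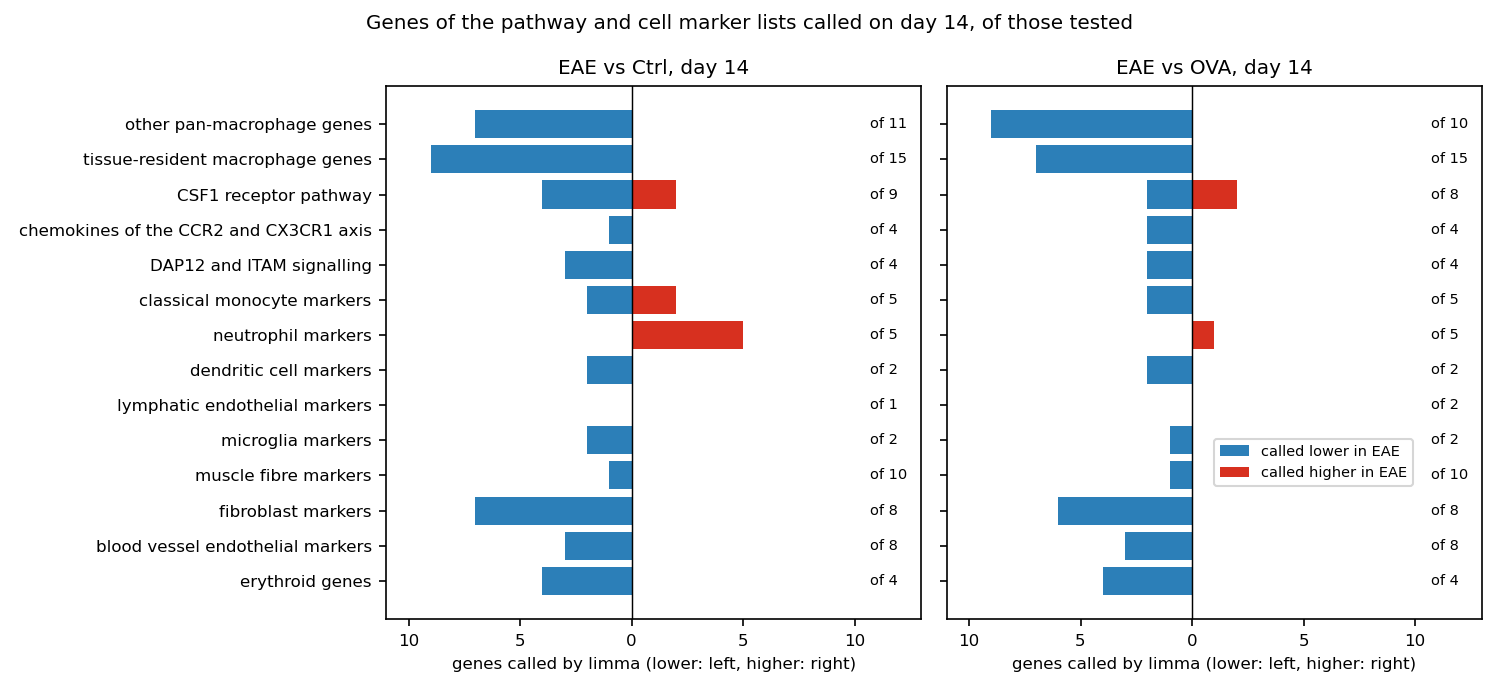
Number of genes called lower (left of 0) and higher (right of 0) in EAE mice on day 14, of those tested in each list (number at the right), for EAE against Ctrl and EAE against OVA mice. The macrophage, fibroblast and erythroid lists hold calls in the direction of lower only, and the neutrophil list in the direction of higher only. Against Ctrl, some neutrophil markers passed the filter only through the EAE mice. Some genes called lower, MS4A7 and CD209G among them, passed it only through the control mice. The list labelled classical monocyte markers also holds genes of patrolling monocytes.

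Markers of other cells moved on day 14 as well, and their part in the members' values was not tested. Neutrophil markers, of which 5 of 14 were tested, were all 5 called higher in EAE than in Ctrl and 1 higher than in OVA, and their summed level was 5.47 to 12.4 RPKM in Ctrl, 71.9 to 242 RPKM in OVA and 221 to 407 RPKM in EAE mice. The median log2 fold change of the 5 was 3.72 against Ctrl and -0.86 against OVA, where only S100A8 was called (2.31 ± 0.36, adjusted p = 0.000139, limma) and NGP was at -0.86 ± 0.40 (adjusted p = 0.0993). Between OVA and Ctrl all 5 of those tested were called higher. S100A8, NGP and LCN2 had means of 1.3, 0.111 and 1 RPKM in Ctrl mice and passed the filter only through the immunized groups. The counts of higher calls against Ctrl were thus partly set by the filter. Among all genes tested, 1282 of 8771 were called higher in EAE against Ctrl and 957 of 8674 against OVA. Neutrophils also express LYZ2 and TYROBP. Of the defining markers, LY6G and ELANE were each without a read in all mice of 1 group of day 40. S100A8, a calcium-binding protein abundant in neutrophils and monocytes, was at 0.807 to 1.85 RPKM in Ctrl and 130 to 335 RPKM in EAE mice. A further list mixed genes of classical monocytes with genes of patrolling monocytes, NR4A1 among the latter. Of its 5 genes tested, 2 were called higher (HP and NR4A1) and 2 lower (FN1 and PLAC8) against Ctrl, and none higher and 2 lower against OVA. PLAC8, with an EAE mean of 1.7 RPKM, passed the filter only through the control groups. LY6C2, which marks classical monocytes, was under the filter with 0.474 to 1.49 RPKM in EAE and 1.16 to 7.88 RPKM in Ctrl mice. NR4A1 lay far above it, at 67.3 to 138 RPKM in EAE and 29.4 to 115 RPKM in Ctrl mice. Which cells the reads of HP, NR4A1, FN1 and PLAC8 came from was not tested, so their calls are not read as changes of monocytes. Both dendritic cell markers tested of 10, H2-AB1 (-2.02 ± 0.34 against Ctrl) and CD209A (-1.03 ± 0.24), were called lower in both comparisons. CD209A, with an EAE mean of 1.75 RPKM, passed the filter only through the control groups. None of the 12 T, B and NK cell markers passed the filter.

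Among markers of connective tissue, vessels and red blood cells, some or most were called lower too, beside 11.8% of all genes against Ctrl and 9.28% against OVA. Of 8 fibroblast markers, 7 were called lower against Ctrl and 6 against OVA, with COL1A1 at 20.6 to 45.5 RPKM in EAE and 196 to 686 RPKM in Ctrl mice, and the list's summed level was 350 to 572 RPKM in EAE and 1014 to 2029 RPKM in Ctrl. Of 8 markers of blood vessel endothelium, 3 were called lower in each comparison, and the summed level was 92.2 to 130 RPKM in EAE and 117 to 154 RPKM in Ctrl mice. All 4 erythroid genes tested were called lower in both comparisons, with summed levels of 26.4 to 188 RPKM in EAE, 189 to 684 RPKM in Ctrl and 475 to 1585 RPKM in OVA mice. Of 10 muscle fibre markers 1, PVALB, was called lower in each comparison, of 6 microglia markers 2 were tested and 2 and 1 were called lower, and the lymphatic endothelial markers tested were not called.

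Leaving out replicate 3 of EAE on day 14, a choice made after seeing the data, gave 9 of 11 further macrophage genes called lower against Ctrl and 9 of 10 against OVA, and 9 and 8 of 15 resident genes. The fibroblast counts were then 7 and 7 of 8. Among the neutrophil markers 4 of 4 were called higher against Ctrl, and against OVA 1 was called higher and 2 lower of 5. The count against Ctrl again includes markers that passed the filter only through the EAE mice. The shares of all genes called in the fits without replicate 3 are not given here, so the list counts are not set against them.

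Over all 30 mice, the genes whose pattern was most like that of a member were found by the root mean square difference of their mean-centred log2 values among 8444 genes with a mean above 3 RPKM, a description over mice that share groups and days. The closest pair among the members was MRC1 and CD163, at 0.182. AIF1 was most like SLAMF9 (0.335), CXCL16 (0.341) and CTSS (0.342), and CXCL16 was also among the 3 genes nearest to CX3CR1 (0.296) and CCR2 (0.270). LYZ2 was nearest to CD53 (0.168), NCF1 (0.209) and FCGR3 (0.210), and TYROBP to COTL1 (0.214), C1QA (0.217) and CORO1A (0.227). CSF1R was nearest to C1S1 (0.141), VSIR (0.149) and PYGB (0.154), and CD68 to the lysosomal protease gene LGMN (0.181), EDEM2 (0.190) and HEXA (0.191). MRC1 was nearest to CSF1 (0.130), whereas the genes nearest to LYVE1, SLC25A5 (0.320), TOMM20 (0.323) and WRNIP1 (0.326), were hardly nearer than a flat line (0.396).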

How the data were processed

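EDL muscle RNA of 30 mice was measured by paired-end sequencing of polyA libraries from a directional kit. Per the study's methods, the authors aligned reads to mm10 with Subread, counted them on RefSeq genes with featureCounts and computed RPKM; the options of the counting were not given in the sources used here. The table was labelled RPKM, but the deposited values were on a log2 scale, log2(RPKM + 1), with 0.0001 for a gene without a read, as the values show: after conversion back, 91.1% of 7701 low values were whole multiples of 1 read (tolerance 0.05), against 79.7% with a natural log and 50.9% when the values were read as RPKM. All values were converted back before the tests. Depth was estimated from these steps and exon lengths (GENCODE, GRCm38), known for 20048 genes (95.1%), since read counts were not used here. All 30 columns were used, and no mouse was left out.

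limma 3.58.1 in R 4.3.3 (lmFit, eBayes with a mean-variance trend) was run on log2(RPKM + 0.1) of all genes above the filter, in 1 model for the 15 mice of each day, and of all 30 mice for comparisons between days and for interactions. The edgeR test that the study used needs counts and was not run. The fit was tested on simulated data. Groups came from the deposited labels. All members were named in every comparison, and from each other list the called genes with the largest change, at most 3 in each direction, plus the C1Q chains, SPI1, PROX1, LY6C2, LYZ1, CSF1, IL34, CCL2, CCL7 and CX3CL1. The members and lists were chosen with earlier results of these data known. Alternatives were a pseudocount of 1, no filter, median-of-ratios scaling, no trend, no fold threshold, other sets of mice in the fit, a replicate block and leaving out single mice. Ratios to CSF1R were compared by two-sided exact permutation tests, added after the data were seen.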

Additional observations from a re-analysis of the deposited data

Results flagged for a closer look

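In 60 sets of 5 mice (10 members in 6 groups), 5 had 1 mouse far from the other 4, in each case the highest. A chance rate of about 1 in 20 groups would hold for independent, normally distributed values. These sets are RPKM values of genes in the same mice, so that rate cannot be applied here. Replicate 1 of Ctrl on day 14 had 26.9 RPKM of CD68, and replicate 5 of Ctrl on day 40 had 25.1 RPKM. LYZ2 was at 263 RPKM in replicate 4 of Ctrl on day 14 and at 307 RPKM in replicate 5 of Ctrl on day 40. CCR2 was at 6.73 RPKM in replicate 3 of EAE on day 14. The same mouse of Ctrl on day 40, replicate 5, was the highest of its group for 6 of the 10 members.

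The EAE effect differed between day 40 and day 14, by an interaction test in limma, for CSF1R (0.52 on the log2 scale), AIF1 (1.71) and CCR2 (0.94) against Ctrl and for AIF1 (1.21) and CCR2 (0.92) against OVA. Of all genes tested, 48.6% were called against Ctrl and 35.1% against OVA, 16.5% and 11.1% in this direction. In 20 fits that each drop 1 mouse, these calls held in 15, 20 and 13 against Ctrl and in 11 and 7 against OVA.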

How the results depend on the processing

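Of 1881 values of single members under an alternative setting, 1714 kept their direction and their side of the threshold, 53 lost a call, 14 gained one, and 100 changed sign, 0 of them called under either setting. The values that changed sign were at most 0.13 in size before and 0.15 after. Under median-of-ratios scaling the sign changed for AIF1 in EAE against OVA on day 40 (0.03), TYROBP in OVA against Ctrl on day 40 (0.00), CSF1R (-0.07) and MRC1 (-0.06) in OVA between the days, MRC1 (0.08) and LYVE1 (0.02) in the change of the EAE effect against Ctrl, and CD163 in that against OVA (0.08). Without the fold threshold, 1 member (CSF1R) was called in EAE against OVA on day 40 and 4 in EAE between the days. For the change of the EAE effect against OVA, a pseudocount of 1 and the fit without a filter each gave 0 members, and median-of-ratios scaling gave 4. That scaling moved the median of all genes for this contrast from -0.16 to -0.04, and for the same contrast against Ctrl from -0.15 to -0.02. The cause of these changes was not tested. The shares of all genes called under the alternative settings, and with single mice left out, are not given here. The counts of members in this section are therefore not set against them. With single mice left out, the counts ranged from 3 to 5 in EAE against Ctrl on day 14, from 2 to 4 in EAE between the days, from 0 to 1 in OVA between the days, from 1 to 5 for the change of the effect against Ctrl and from 0 to 5 for that against OVA. The lowest count in EAE against Ctrl came without replicate 4 of Ctrl or replicate 2 of EAE. The other sign changes came with single mice left out. On day 14 the values then ran from -0.01 to 0.23 for LYVE1 in EAE against Ctrl and from -0.04 to 0.18 for CD68 in EAE against OVA, and in OVA against Ctrl from -0.11 to 0.02 for CSF1R, -0.10 to 0.17 for TYROBP and -0.15 to 0.11 for CD163. On day 40 they ran in EAE against Ctrl from -0.10 to 0.11 for AIF1, -0.23 to 0.05 for TYROBP and -0.10 to 0.16 for LYVE1, and in EAE against OVA from -0.21 to 0.03 for CD68 and -0.15 to 0.10 for AIF1. In OVA against Ctrl on day 40 they ran from -0.13 to 0.03 for CD68, -0.09 to 0.15 for AIF1, -0.05 to 0.20 for LYZ2, -0.13 to 0.15 for TYROBP and -0.03 to 0.09 for MRC1. Between the days they ran in EAE from -0.13 to 0.11 for CD68 and -0.18 to 0.00 for CD163, in OVA from -0.06 to 0.07 for CSF1R, -0.08 to 0.27 for AIF1, -0.12 to 0.13 for MRC1 and -0.16 to 0.07 for CD163, and in Ctrl from -0.17 to 0.07 for CD68, -0.09 to 0.24 for LYZ2 and -0.24 to 0.01 for LYVE1. For the change of the EAE effect they ran from -0.12 to 0.16 for CD68, -0.14 to 0.08 for MRC1 and -0.22 to 0.04 for LYVE1 against Ctrl, and from -0.03 to 0.22 for MRC1 and -0.15 to 0.09 for CD163 against OVA.

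The replicate numbers did not pair the mice: over 75 pairs with the same number the correlation of deviations from the group means ran from -0.73 to 0.72, with a median of 0.01 and 26 above 0.1, and 5 of 30 mice were nearest to their own number. With the replicate number as a block, 5 members were called in EAE against Ctrl and 5 in EAE against OVA on day 14, as without it, and the block changed no count of members.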
